A study of Arabidopsis thaliana with 18 samples.

Results

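The genes described here are the enzymes that remove, store and release the plant hormone abscisic acid (ABA) in Arabidopsis thaliana. They were chosen by name: 4 ABA hydroxylases (CYP707A1, CYP707A2, CYP707A3 and CYP707A4), the glucosyltransferase UGT71B6 and the beta-glucosidases BGLU18 and BGLU33. These are 7 of the 32399 loci with counts, and 3 of the 7 (CYP707A4, UGT71B6 and BGLU33) held enough reads to be tested. Messenger RNA was sequenced from whole seedlings 12 d old of ros1-3, ros1-4 and wild type (WT), in which ROS1, a DNA glycosylase that removes methylated cytosine, is mutated or intact. The seedlings of each genotype stood for 6 h in water with 50 µM ABA or with its solvent alone (mock). This gave 6 groups: ros1-3 ABA, ros1-3 mock, ros1-4 ABA, ros1-4 mock, WT ABA and WT mock, with 3 libraries each, every library from a pool of 5 plants. The labels give neither the accession in which each allele is held nor how often it was crossed to WT.

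ABA is inactivated by hydroxylation and by conjugation. Cytochrome P450 enzymes of the CYP707A family hydroxylate it to a product that turns into phaseic acid, which a reductase converts further. Glucosyltransferases such as UGT71B6 attach glucose to ABA, and the inactive ester is kept in the vacuole and the endoplasmic reticulum (ER). Beta-glucosidases cut the ester and free the hormone again, BGLU18 in the ER and BGLU33 in the vacuole. In vegetative tissue the hormone is known to raise transcripts for its own removal, and CYP707A2 is best known for clearing ABA from imbibed seeds.

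The 250 bases before the annotated start of the 3 tested genes are shown because the results below turn on these genes and on whether they responded to ABA. The sequences are RefSeq's, in the TAIR10.1 assembly, written 5′ to 3′ on the gene's strand. Capitals mark ACGTG on either strand, the core of the element that ABA-responsive bZIP factors are known to bind.
CYP707A4, chr3:6676522-6676771, minus strand: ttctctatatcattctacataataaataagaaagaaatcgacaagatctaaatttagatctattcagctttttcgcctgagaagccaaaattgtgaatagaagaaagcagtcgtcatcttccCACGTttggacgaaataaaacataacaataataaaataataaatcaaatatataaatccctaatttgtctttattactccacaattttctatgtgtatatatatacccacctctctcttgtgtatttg
UGT71B6, chr3:7676520-7676769, minus strand: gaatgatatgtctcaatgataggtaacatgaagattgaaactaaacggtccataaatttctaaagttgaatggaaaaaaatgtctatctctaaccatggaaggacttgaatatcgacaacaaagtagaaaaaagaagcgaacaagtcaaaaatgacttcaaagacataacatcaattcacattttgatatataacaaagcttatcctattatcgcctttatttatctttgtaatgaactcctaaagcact
BGLU33, chr2:13939937-13940186, plus strand: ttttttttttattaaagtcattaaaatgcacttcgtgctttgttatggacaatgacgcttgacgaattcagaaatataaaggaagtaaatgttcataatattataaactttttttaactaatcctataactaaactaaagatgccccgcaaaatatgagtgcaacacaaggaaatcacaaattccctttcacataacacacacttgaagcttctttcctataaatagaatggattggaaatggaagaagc

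One match, at position -128 from the start, stands in the CYP707A4 window, and no match in those of UGT71B6 and BGLU33. Of 27443 promoter windows of this length 22.9% hold ACGTG on either strand. Among the genes that could not be tested, CYP707A1 had overlapping matches at -20 and -19 and CYP707A3 at -113 and -112, both within the palindrome CACGTG, while CYP707A2 and BGLU18 had none. The longer form ACGTGNC, in which N is any base, overlapped these matches once each in CYP707A1 and CYP707A3 and stands in 8.57% of all windows. GCCGAC, in 2.56% of windows, and ACCGAC, in 4.70%, both known from drought-responsive genes, were in none of the 7. A match describes letters in a window and says nothing of binding.

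Counted reads per library ran from 3304038 to 10275773. ROS1 itself still gave reads in both alleles, at a lower level: 47.3 to 58.3 CPM in ABA and 51.2 to 57.7 in mock for ros1-3, 35.5 to 47.6 in ABA and 31.5 to 38.4 in mock for ros1-4, and 96.5 to 120.3 in ABA and 82.6 to 94.6 in mock for WT. CPM is the usual count scaled to library size, with edgeR's scaling factor for each library. The share of reads aligned to several places also moved with genotype: it was 5.60 to 9.45% in ros1-3, 3.46 to 4.62% in ros1-4 and 6.32 to 13.0% in WT. Of the markers of whole seedlings, 3 of 4 green tissue genes, 4 of 4 root genes and 4 of 4 guard cell genes were well counted, and of 5 seed genes CRA1, CRU2 and CRU3 had 0 counts in every library, SESA3 had 1 count and OLEO1 had 25 in all. In whole seedlings fewer cells of a type and less RNA per cell cannot be told apart, and p-values cover only the spread between these pools.

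The hydroxylases CYP707A1, CYP707A2 and CYP707A3 and the ER glucosidase BGLU18 were nearly without counts, in every group. The reads were counted per transcript model, and 32.1 to 33.2% of ambiguous and counted reads together were set aside as ambiguous. The overlap setting of the counting is not given. If a read in several models of a locus was ambiguous, such a locus kept only the reads in bases of 1 model. CYP707A1 (AT4G19230, chromosome 4, 10521259 to 10523961, plus strand) had 0 counts in 18 libraries. Its models share all but 120 and 2 of their exonic bases in the RefSeq annotation, which may differ from the models the authors used. A count of 0 allows up to 3 counts, or 0.0290 CPM over all libraries and 0.292 to 0.908 CPM in a single library, of reads in those bases. That limit covers counting error only and holds for these bases, not for the gene.

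CYP707A2 (AT2G29090, chromosome 2, 12494826 to 12499723, minus strand), the hydroxylase of imbibed seeds, had 2 counts, both in 1 ros1-3 ABA library. It has 126 bases in its first model and 0 in its second that the other lacks. CYP707A3 (AT5G45340, chromosome 5, 18368532 to 18371021, minus strand), the hydroxylase known from dehydrated and rewatered plants, had 17 counts, 15 of them in its second model, with 93 bases of its own. No library held more than 3 of them. BGLU18 (AT1G52400, chromosome 1, 19514989 to 19518411, plus strand) has 3 models and 54 counts, 52 of them in the first model. Its counts were 8, 5 and 7 in ros1-3 ABA, against 4, 2 and 3 in ros1-3 mock. They were 3, 4 and 3 in ros1-4 ABA, against 0, 1 and 0 in ros1-4 mock, and 6, 5 and 0 in WT ABA, against 0, 0 and 3 in WT mock. The ros1-3 and ros1-4 libraries did not overlap between ABA and mock, and the WT libraries did. ABA and mock did not overlap for 48.9% of all tested genes in ros1-3 and 47.0% in ros1-4 either. At these counts of BGLU18 no test was made. These 4 genes fell under the filter, which asked for at least 2.08 CPM in 3 libraries, so their level and response to ABA were not measured here.

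**Figure D1:**
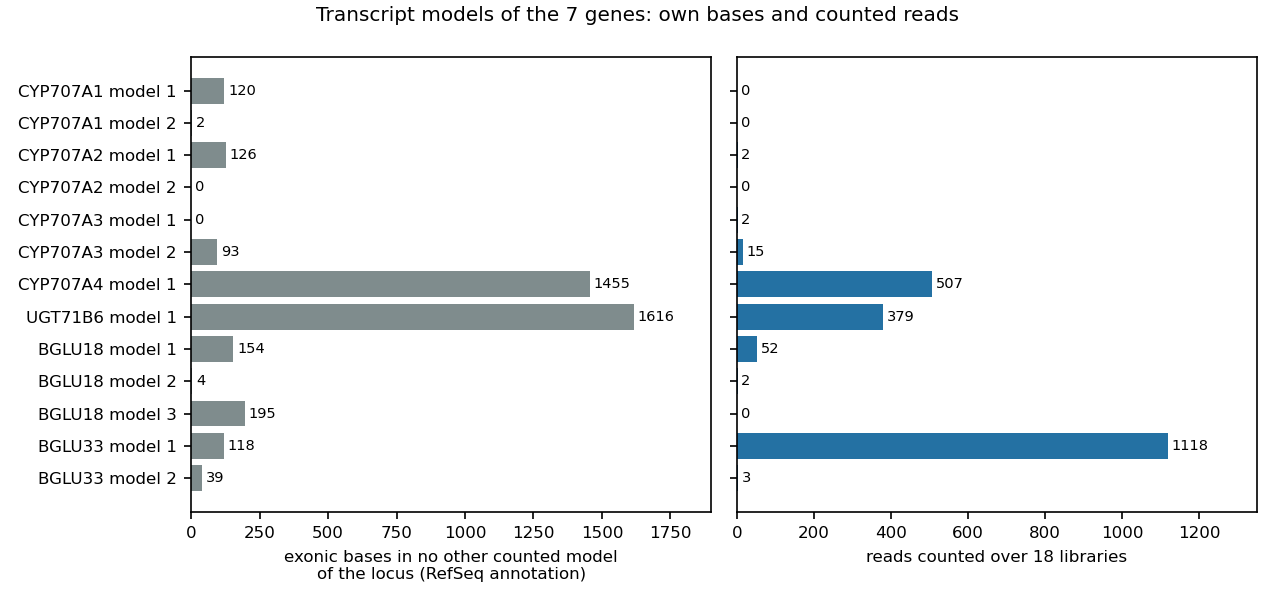
Bars show, for each transcript model of the 7 genes, the exonic bases that no other counted model of the locus holds (left, RefSeq annotation) and the reads counted over all 18 libraries (right). The single models of CYP707A4 and UGT71B6 hold 1455 and 1616 such bases, while no model of the other 5 genes holds more than 195.

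CYP707A4 and UGT71B6 have 1 model each, though UGT71B6 overlaps an antisense locus. BGLU33 has models of 118 and 39 bases of their own, and 1118 of its 1121 counts fell to the first. By this annotation, and if reads in several models were ambiguous, the BGLU33 values below also rest on those bases and not on the whole gene. Over the whole genome 41.1% of the 5883 loci with several models passed the filter, and 50.7% of the 26516 loci with 1 model. In that order 8.02% and 30.7% of the loci had 0 counts. CYP707A4 passed through its ABA libraries alone, of which all 9 and none of the 9 mock libraries exceeded the cutoff. A gene kept in this way had to differ between treatments, so its place among the tested genes is no support for its response. UGT71B6 exceeded the cutoff in 9 ABA and 4 mock libraries and BGLU33 in all 18.

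The comparison of ABA with mock asks how the seedlings adjusted these transcripts 6 h after the hormone was added. CYP707A4 and UGT71B6 rose with ABA in all 3 genotypes, the hydroxylase by far more than the glucosyltransferase, and BGLU33 did not pass the test in any. A gene was called where edgeR's quasi-likelihood test gave an adjusted p under 0.05, with p-values adjusted over all tested genes by Benjamini-Hochberg. SE below is an approximate standard error, the size of the log2 fold change over the square root of its F in that test. It can be too small where counts are few, as for CYP707A4 in mock. Each comparison called 2 of the 3 tested genes, both higher. Of all 15853 tested genes 19.7% were called higher in ros1-3, 19.8% in ros1-4 and 20% in WT, and 38.2%, 38.2% and 38.5% in either direction. With 3 genes, that count says little against such a background. The median log2 fold change over all tested genes was -0.02 in ros1-3, -0.01 in ros1-4 and -0.01 in WT.

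**Figure D2:**
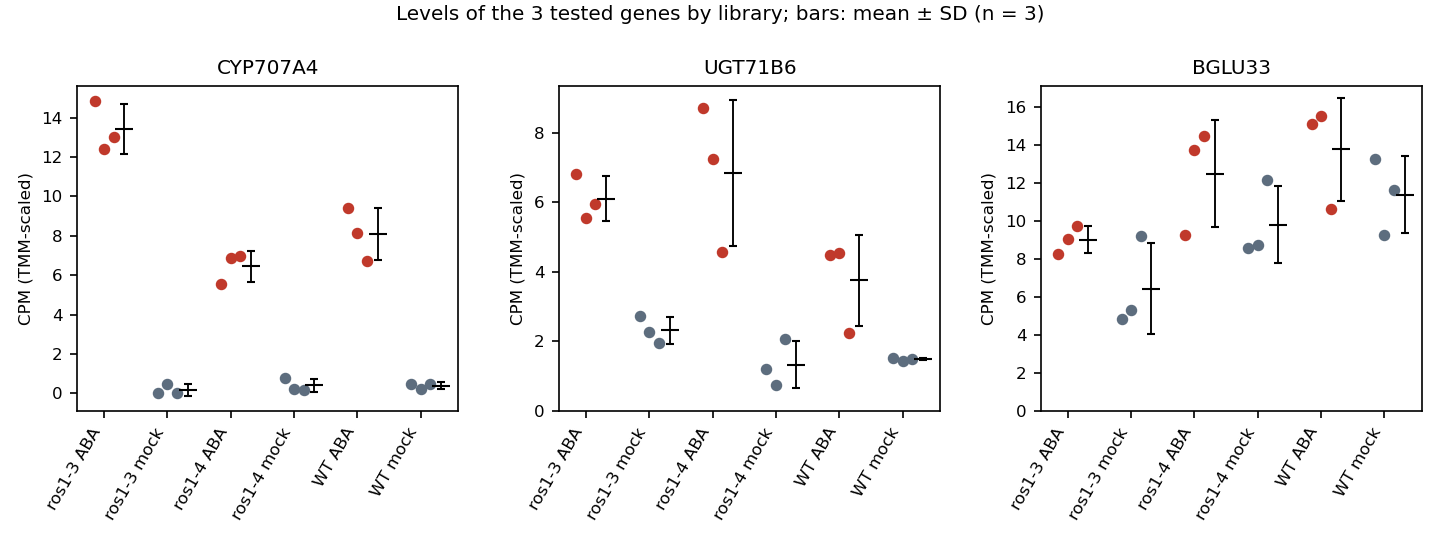
Points are the single libraries (red ABA, grey mock) and bars the mean ± SD of 3 libraries, in CPM, for the 3 tested genes. CYP707A4 lay at 5.56 to 14.9 CPM in ABA and at most at 0.796 CPM in mock, and UGT71B6 lay higher in ABA within each genotype, while the BGLU33 libraries of ABA and mock overlapped.

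CYP707A4 (AT3G19270, chromosome 3, 6673689 to 6676521, minus strand, 8 exons), an ABA hydroxylase, was the gene with the largest response among the 3. In ros1-3 it had 14.9, 12.4 and 13.0 CPM in ABA, against 0, 0.504 and 0 CPM in mock. In ros1-4 it had 5.56, 6.86 and 6.95 CPM in ABA, against 0.796, 0.242 and 0.187 CPM in mock. In WT it had 9.41, 8.15 and 6.74 CPM in ABA, against 0.501, 0.205 and 0.497 CPM in mock. Every ABA library lay above every mock library, and the mock libraries held only 0 to 5 counts of the gene. Within a genotype, ABA and mock libraries did not overlap for 48.9% of all tested genes in ros1-3, 47.0% in ros1-4 and 49.0% in WT.

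The means were 13.4 ± 1.28 CPM in ros1-3 ABA and 0.168 ± 0.291 in ros1-3 mock, 6.46 ± 0.778 in ros1-4 ABA and 0.409 ± 0.337 in ros1-4 mock, and 8.10 ± 1.33 in WT ABA and 0.401 ± 0.169 in WT mock (SD, n = 3 libraries each). The log2 fold change was 3.89 in ros1-4 (SE 0.41, edgeR adjusted p = 1.17e-07) and 4.20 in WT (SE 0.36, edgeR adjusted p = 4.68e-09). Without ros1-4 mock replicate 1, which held 4 of the 6 counts of its group, the ros1-4 value was 4.80 and remained called. In ros1-3 the 3 mock libraries summed to 2 counts, all in replicate 2, so the ratio of ABA to mock is given with its counting interval: 82.5, with a 95% interval of 22.5 to 686. The same ratio was 15.6 (6.99 to 43.3) in ros1-4 and 19.4 (9.66 to 45.7) in WT, so the intervals overlapped. The ros1-3 response also passed the edgeR test (adjusted p = 4.70e-10).

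UGT71B6 (AT3G21780, chromosome 3, 7674904 to 7676519, minus strand, a single exon), which makes the glucose ester of ABA, rose by less. In ros1-3 it had 6.82, 5.54 and 5.96 CPM in ABA, against 2.73, 2.27 and 1.95 CPM in mock. In ros1-4 it had 8.70, 7.23 and 4.56 CPM in ABA, against 1.19, 0.727 and 2.06 CPM in mock. In WT it had 4.47, 4.53 and 2.25 CPM in ABA, against 1.5, 1.44 and 1.49 CPM in mock. No genotype had an overlap of ABA and mock libraries. The same held for 48.9% of all tested genes in ros1-3, 47.0% in ros1-4 and 49.0% in WT. The lowest ABA library of UGT71B6, WT replicate 3, held 15 counts, as many as the deepest WT mock library.

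The log2 fold change of UGT71B6 was 1.37 in ros1-3 (SE 0.35, edgeR adjusted p = 0.00318), 2.28 in ros1-4 (SE 0.35, edgeR adjusted p = 1.84e-05) and 1.34 in WT (SE 0.35, edgeR adjusted p = 0.00380). With the share of multiply aligned reads as covariate (below, the covariate fit) the WT value was 0.90 and no longer called (edgeR adjusted p = 0.128; over all alternatives 0.000766 to 0.128). That share was 6.32 to 11.4% in WT ABA and 9.80 to 13.0% in WT mock, and its part in the result was not tested further. The antisense locus AT3G21781 overlaps UGT71B6, was counted as a locus of its own and had 0 counts in every library. Whether the counting used strand is not stated in these sources, so how reads in the overlap were assigned is not known.

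BGLU33 (AT2G32860, chromosome 2, 13940187 to 13943883, plus strand), the vacuolar glucosidase that frees ABA from its ester, did not pass the test for ABA in any genotype. In ros1-3 it had 8.28, 9.08 and 9.71 CPM in ABA, against 4.83, 5.29 and 9.20 CPM in mock. In ros1-4 it had 9.27, 13.7 and 14.5 CPM in ABA, against 8.56, 8.72 and 12.1 CPM in mock. In WT it had 15.1, 15.5 and 10.6 CPM in ABA, against 13.3, 9.25 and 11.6 CPM in mock. ABA and mock libraries overlapped in each genotype.

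The log2 fold change of BGLU33 was 0.52 in ros1-3 (SE 0.27, edgeR adjusted p = 0.139), 0.34 in ros1-4 (SE 0.22, edgeR adjusted p = 0.241) and 0.28 in WT (SE 0.20, edgeR adjusted p = 0.294). Without ros1-3 mock replicate 3, the highest of its group, the ros1-3 value was 0.85 and was called (edgeR adjusted p = 0.0292; over leave-one-out fits 0.0292 to 0.423). In the covariate fit the WT value was -0.011.

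The sum of the green tissue markers also moved with the treatment, over a list of 4 genes of which RBCS3B, with 34 counts, was not tested. Their summed level was 37569 to 46255 CPM in ros1-3 ABA and 31477 to 35303 in ros1-3 mock, 41814 to 48044 in ros1-4 ABA and 30381 to 40687 in ros1-4 mock, and 44842 to 51902 in WT ABA and 33032 to 42105 in WT mock. The 4 guard cell markers summed to 63.6 to 70.4 CPM in ros1-3 ABA and 64.9 to 91.2 in ros1-3 mock, 54.3 to 66.0 in ros1-4 ABA and 73.1 to 83.8 in ros1-4 mock, and 46.6 to 56.9 in WT ABA and 69.8 to 72.5 in WT mock. The 4 root markers summed to 899 to 1052 CPM in ros1-3 ABA and 903 to 1037 in ros1-3 mock, 984 to 1102 in ros1-4 ABA and 761 to 865 in ros1-4 mock, and 999.6 to 1140 in WT ABA and 735 to 1006 in WT mock. The green tissue sum was higher with ABA in every genotype without overlap. The root sum was higher without overlap in ros1-4 alone, and the guard cell sum was lower without overlap in ros1-4 and WT. PYK10 held 92391 root counts, while no other root marker held more than 2395. PYK10 alone was at 961 to 1080.5 CPM in ros1-4 ABA and 672 to 767 in ros1-4 mock. The root sum thus follows PYK10 and is no measure of the other root markers. In the same way LHCB1.5 held 3272285 green tissue counts, while no other green tissue marker held more than 498365. FAMA held 3925 guard cell counts, and no other guard cell marker more than 1934. The green tissue and guard cell sums thus weigh these genes most and do not show that each listed marker moved. The part of these shifts in the responses above was not tested.

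Most tested enzymes that make ABA rose too. Of 10 synthesis genes listed, 7 were tested: 5 were higher with ABA in ros1-3, 5 in ros1-4 and 6 in WT, and none was lower, beside 19.7%, 19.8% and 20% of all tested genes called higher. Their median log2 fold change was 1.61, 1.51 and 1.44 in that order of genotypes, beside the medians near 0 of all tested genes. The counts and medians include NCED2, called higher in every genotype, which passed the filter through its ABA libraries alone. NCED3, a dioxygenase that cuts carotenoids in the limiting step of drought-induced synthesis, averaged 17.3 ± 2.39 CPM in ros1-3 ABA and 4.20 ± 1.25 in ros1-3 mock, 20.3 ± 4.78 in ros1-4 ABA and 5.38 ± 2.49 in ros1-4 mock, and 20.2 ± 3.28 in WT ABA and 4.99 ± 0.204 in WT mock (SD, n = 3). Its log2 fold change was 2.03, 1.92 and 2 (edgeR adjusted p at most 3.52e-06). ABA1, which epoxidises zeaxanthin at the start of the pathway, rose by 1.61, 1.51 and 1.68 on the log2 scale (edgeR adjusted p at most 1.96e-09). AAO3, the aldehyde oxidase of the last step, rose by 1.68, 1.62 and 1.44 (edgeR adjusted p at most 1.41e-05).

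NCED2, a dioxygenase related to NCED3, had 0 to 0.755 CPM in the mock libraries and 5.96 to 14.3 CPM in the ABA libraries. It passed the filter through its ABA libraries alone, so, as for CYP707A4, its place among the tested genes is no support for its response. It rose by 3.69 in ros1-3 and 4.18 in WT on the log2 scale (edgeR adjusted p at most 4.35e-07), and in ros1-4, with 2 counts over the mock libraries, the ratio was 84.6 (95% counting interval 23.2 to 703). The WT count of 6 includes ABA4, which acts in neoxanthin synthesis, at 0.32 (edgeR adjusted p = 0.0203). The call of ABA4 was lost without WT mock replicate 2 (0.30, edgeR adjusted p = 0.0637) or 3 (0.28, edgeR adjusted p = 0.0860) and in the fit that took the multiply aligned share as covariate (0.30, edgeR adjusted p = 0.104).

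Other enzymes of the ester route did not move as one. Of 6 further UGT71 glucosyltransferases 4 were tested, and in each genotype 2 were higher with ABA and 1 was lower. Of all tested genes 38.2% were called in either direction in ros1-3, 38.2% in ros1-4 and 38.5% in WT. With 4 genes, the count says little against that background. UGT71B7, which lies near UGT71B6 on chromosome 3, rose by 0.89 in ros1-3, 0.70 in ros1-4 and 0.41 in WT on the log2 scale (edgeR adjusted p at most 0.00782), and in WT the call did not hold in the covariate fit (0.37, edgeR adjusted p = 0.0722). UGT71B1, another near neighbour, rose by 0.82, 0.71 and 0.60 (edgeR adjusted p at most 0.000171). UGT71C5, which is also known to glucosylate ABA, fell: it averaged 31.9 ± 3.20 CPM in ros1-3 ABA and 58.5 ± 4.09 in ros1-3 mock, 41.1 ± 3.85 in ros1-4 ABA and 62.1 ± 2.65 in ros1-4 mock, and 34.8 ± 1.43 in WT ABA and 63.3 ± 7.12 in WT mock (SD, n = 3). Its log2 fold change was -0.87 in ros1-3, -0.60 in ros1-4 and -0.87 in WT (edgeR adjusted p at most 3.81e-05). UGT71B6, UGT71B7 and UGT71B1 are close in sequence, and reads that align to several places were not counted.

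BGLU10, a further vacuolar glucosidase that acts on the ester, rose where BGLU33 did not pass the test. It averaged 44.7 ± 4.38 CPM in ros1-3 ABA and 20.2 ± 3.49 in ros1-3 mock, 32.5 ± 3.71 in ros1-4 ABA and 17.3 ± 1.2 in ros1-4 mock, and 34.0 ± 9.08 in WT ABA and 16.0 ± 1.73 in WT mock (SD, n = 3). Its log2 fold change was 1.16, 0.91 and 1.07 (edgeR adjusted p at most 0.000143). ABH2, the reductase that converts phaseic acid, had 7 counts and was not tested.

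Genes of the ER bodies, the compartments that hold BGLU18 and related glucosidases, moved in both directions in ros1-4 and WT. Of 8 listed, 5 were tested: 2 were higher and 1 lower in ros1-4 and in WT, and 1 was lower in ros1-3, beside the 38.2% (ros1-3), 38.2% (ros1-4) and 38.5% (WT) of all tested genes called. BGLU21, a glucosidase of roots, averaged 2.34 ± 0.474 CPM in ros1-3 ABA and 4.67 ± 1.23 in ros1-3 mock, 1.66 ± 0.230 in ros1-4 ABA and 6.60 ± 1.91 in ros1-4 mock, and 2.09 ± 0.424 in WT ABA and 7.59 ± 3.05 in WT mock (SD, n = 3). Its log2 fold change was -1.98 in ros1-4 and -1.78 in WT (edgeR adjusted p at most 0.000121). In ros1-3 it was -1.01 (edgeR adjusted p = 0.0443), a call that was lost by DESeq2 (-1), in the covariate fit (-0.86), without ros1-3 mock replicate 1 (-0.74), without ros1-3 ABA replicate 1 (-0.90), 2 (-0.96) or 3 (-1.18), and without ros1-4 ABA replicate 2 (-1).

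The higher ER body genes were PYK10, an abundant ER body glucosidase, and NAI1, the bHLH factor that ER bodies need. PYK10 was at 0.49 in ros1-4 and 0.39 in WT on the log2 scale (edgeR adjusted p at most 0.00662), and its WT call was lost without WT mock replicate 3 (0.26). NAI1 was at 0.51 in ros1-4 and 0.44 in WT (edgeR adjusted p at most 0.0225). In ros1-4 the call did not survive the removal of mock replicate 3 (0.39), and in WT it was lost without WT mock replicate 2 (0.44) or 3 (0.37), without WT ABA replicate 3 (0.35) and in the covariate fit (0.46).

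**Figure D3:**
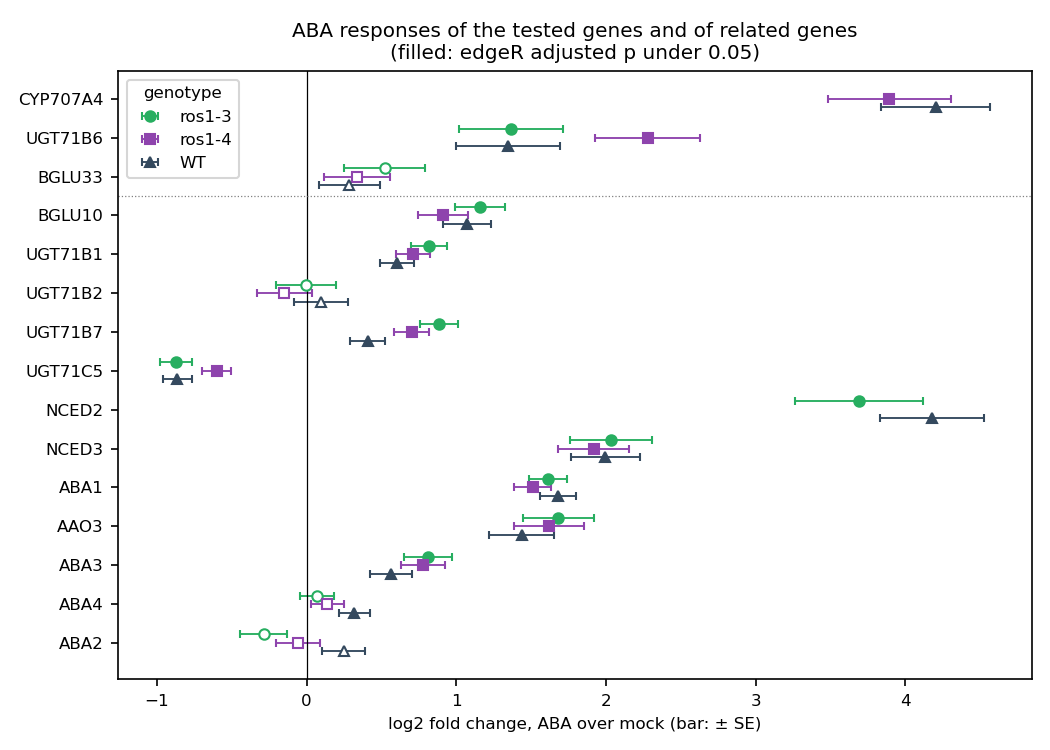
Points are log2 fold changes of ABA over mock with their approximate SE, from 1 edgeR fit of 18 libraries. They cover the 3 tested genes (above the dotted line), BGLU10 and the tested UGT71 and synthesis genes. Filled points were called. CYP707A4 in ros1-3 and NCED2 in ros1-4 are not drawn, since their mock groups summed to 2 counts each. Of the genes drawn, UGT71C5 lies below 0 with a call in all 3 genotypes.

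The comparisons of each allele with WT ask whether mutation of the demethylase altered these transcripts. No tested gene of the 3 was called in ros1-3 or ros1-4 against WT, in either treatment. The share of all tested genes called was 1.72% for ros1-3 and 0.681% for ros1-4 in ABA, and 1.32% for ros1-3 and 0.448% for ros1-4 in mock. Some groups nevertheless did not overlap, and their values are given as such. The libraries did not overlap for 19.3% of all tested genes between ros1-3 and WT in ABA, 13.1% between ros1-4 and WT in ABA, 16.6% between ros1-3 and WT in mock, 11.6% between ros1-4 and WT in mock and 21.6% between ros1-3 and ros1-4 in ABA.

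Under ABA, the 3 ros1-3 libraries of CYP707A4 lay above all WT libraries and all ros1-4 libraries. The log2 difference from WT was 0.72 (SE 0.21) and missed the threshold (edgeR adjusted p = 0.0962). When the 2 groups compared were fitted alone it was 0.71 and passed (edgeR adjusted p = 0.0366; over all alternatives 0.0366 to 0.298). In ros1-4 the difference from WT was -0.34 (SE 0.21, edgeR adjusted p = 0.764), with overlapping libraries.

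Set against each other, ros1-3 had more CYP707A4 than ros1-4 under ABA, by 1.05 on the log2 scale (SE 0.21, edgeR adjusted p = 0.00755). This was 1 of the 3 tested genes, and 1.27% of all tested genes were called higher in that comparison and 2.79% in either direction. Without ros1-3 ABA replicate 1, its highest library, the value was 0.97 and missed the threshold (edgeR adjusted p = 0.0530; over all alternatives 0.00174 to 0.0530). In mock, at 0 to 5 counts a library, a difference between genotypes was not detectable at this depth. UGT71B6 and BGLU33 were not called between the alleles in either treatment.

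The ABA synthesis gene NCED2 ran the other way between the alleles. It averaged 6.55 ± 0.510 CPM in ros1-3 ABA and 11.5 ± 2.60 in ros1-4 ABA (SD, n = 3), a log2 difference of -0.82 (edgeR adjusted p = 0.0445). This was the single call among the 7 synthesis genes, beside 2.79% of all tested genes called in either direction. The call was lost by DESeq2, in the covariate fit, without any 1 of the ros1-3 ABA or WT ABA libraries, without ros1-3 mock replicate 3 and without ros1-4 ABA replicate 1 or 3 (-0.86 to -0.64, edgeR adjusted p = 0.0530 to 0.210).

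UGT71B6 libraries of both alleles lay above those of WT under ABA. The difference from WT was 0.68 for ros1-3 (SE 0.29, edgeR adjusted p = 0.307) and 0.83 for ros1-4 (SE 0.26, edgeR adjusted p = 0.256) on the log2 scale, neither of them called. In mock the ros1-3 libraries of UGT71B6 also lay above WT, by 0.66 (SE 0.42, edgeR adjusted p = 0.575), and those of ros1-4 overlapped with WT (-0.11, SE 0.46, edgeR adjusted p = 0.996, and -1.04 in the covariate fit, edgeR adjusted p = 0.976).

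BGLU33 was low in ros1-3 in both treatments. Its mean was 9.02 ± 0.717 CPM in ros1-3 ABA against 13.8 ± 2.72 in WT ABA, and 6.44 ± 2.40 CPM in ros1-3 mock against 11.4 ± 2.02 in WT mock (SD, n = 3). The libraries did not overlap, yet the log2 differences of -0.61 in ABA (SE 0.22, edgeR adjusted p = 0.212) and -0.85 in mock (SE 0.25, edgeR adjusted p = 0.117) missed the threshold. With no filter on low counts the mock difference was -0.86 and passed (edgeR adjusted p = 0.0409; over all alternatives 0.0409 to 0.461). In ros1-4 the differences were -0.14 in ABA (SE 0.20, edgeR adjusted p = 0.940) and -0.20 in mock (SE 0.23, edgeR adjusted p = 0.944), and its libraries overlapped with WT. In the covariate fit the mock difference of ros1-4 was -0.82 (SE 0.40, edgeR adjusted p = 0.976), again not called. In mock the share of multiply aligned reads did not overlap with WT for either allele. It was 6.53 to 9.45% in ros1-3, 3.46 to 4.62% in ros1-4 and 9.80 to 13.0% in WT.

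The region around BGLU33 held more called genes in ros1-3 than the rest of the genome. Within 1000 kb on either side of its start, a window chosen with earlier results known, 17 of 311 tested genes (5.47%) were called between ros1-3 and WT in mock, 13 of them lower. Elsewhere 193 of 15542 (1.24%) were called. In ABA the shares were 7.07% and 1.61%. For ros1-4 against WT in mock they were 0.322% and 0.450%. The median log2 difference of the window was -0.03 for ros1-3 in mock and that of BGLU33 -0.85. The part of the region in the BGLU33 value was not tested. ROS1, the mutated gene (AT2G36490), and CYP707A2 are on chromosome 2 too, but CYP707A2 with 2 counts could not be compared.

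**Figure D4:**
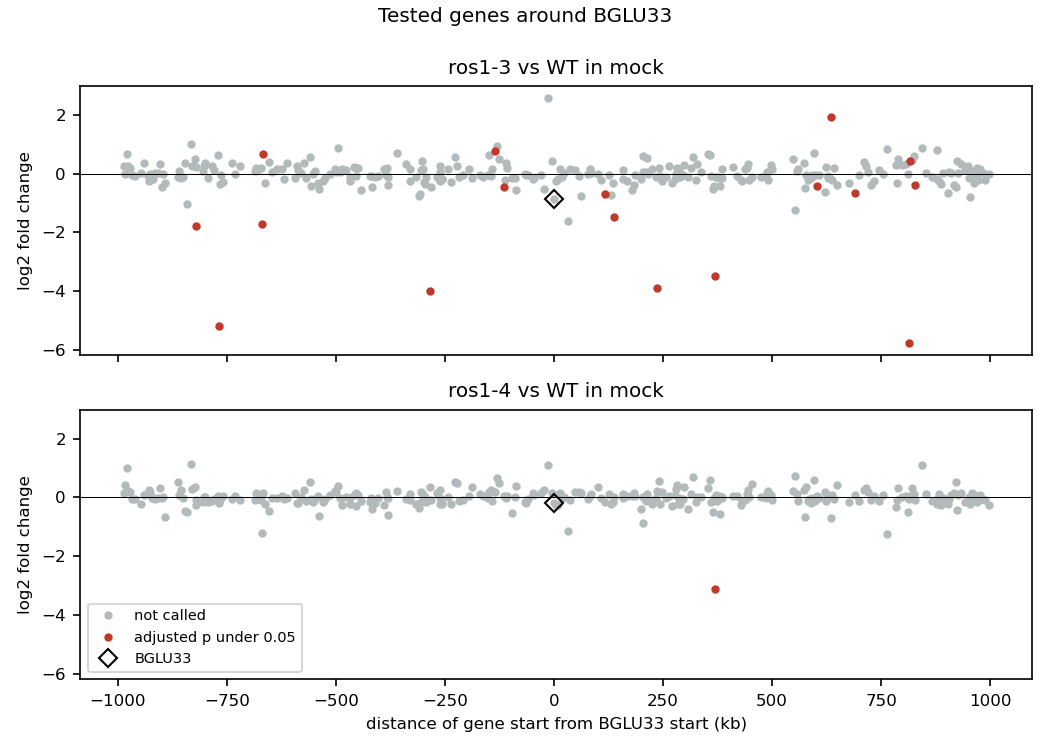
Each point is a tested gene within 1000 kb of the BGLU33 start, placed by distance (kb) and by log2 fold change of ros1-3 (above) or ros1-4 (below) over WT in mock; red points were called and the diamond is BGLU33. The window shows 17 called genes for ros1-3 and 1 for ros1-4.

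The interaction term asks whether the ABA response itself differed from that of WT. None of the 3 genes was called. By edgeR 0 of 15853 genes (0%) were called for either allele, with 743 for ros1-3 and 521 for ros1-4 at an unadjusted p under 0.05, and DESeq2 called 10 and 1. For CYP707A4 the response of ros1-3 minus that of WT was 1.98 on the log2 scale (SE 0.95, unadjusted p = 0.0480 and adjusted p = 0.994 by edgeR), a value that rests on 2 counts in ros1-3 mock and ran from 1.35 to 5.06 with single libraries left out. For UGT71B6 the response of ros1-4 minus that of WT was 0.93 (SE 0.53, edgeR adjusted p = 0.9999) and that of ros1-3 minus WT 0.02 (SE 0.65, edgeR adjusted p = 0.9998). For BGLU33 the differences were 0.24 in ros1-3 (SE 0.34) and 0.05 in ros1-4 (SE 0.30). The standard errors leave room for differences of the size of the responses of UGT71B6 and BGLU33 themselves.

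Genes whose levels ran like these over the 18 libraries were sought among tested genes with an average log2 CPM of at least 1. As a description, the 3 of highest Pearson's r of log2 CPM are named for each. With CYP707A4 they were WRKY24, a transcription factor (r = 0.986), BAM1, a chloroplast beta-amylase (AT3G23920, r = 0.985), and AT3G30300 (r = 0.983). With UGT71B6 they were EXL2, an exordium-like protein (r = 0.945), MTP11, a manganese transporter (r = 0.935), and LPR2, a multicopper oxidase of root phosphate sensing (r = 0.932). With BGLU33 they were AT3G18535 (r = 0.908), AT5G14540 (r = 0.865) and PSBP-2, related to a photosystem II subunit (r = 0.859). PSBP-2 (AT2G30790) lies 821 kb from BGLU33, within the window above, and was itself called lower in ros1-3 than in WT in mock (-1.79 on the log2 scale). All points share the libraries and their treatment split.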

How the data were processed

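Reads were counted by the authors per transcript model, and the deposited values are raw counts. The submitters' processing notes name HTSeq 0.6.1, TopHat2 2.0.8, Trim Galore 0.2.8 and SAMtools, and the build TAIR10, without their order or settings. Each file lists 40466 models of 32399 loci and 5 rows that name no gene, which hold 36.7 to 44.5% of its total and were left out. Models were summed per locus. Names, positions and promoter windows come from RefSeq's TAIR10.1, whose exons may differ from the models counted.

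Counts of 18 libraries were fitted once with edgeR 4.0.16 in R 4.3.3: TMM scaling, filterByExpr, 1 coefficient per group, the quasi-likelihood F test with 12 residual degrees of freedom (common biological coefficient of variation 0.0962), and Benjamini-Hochberg adjustment over 15853 loci. A gene was called at an adjusted p under 0.05. SE is approximate, from the size of the log2 fold change over the square root of its F. Ratios over few counts have exact 95% binomial intervals for counting error only.

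Replicates of a group differed by more than sampling noise (chi-square per degree of freedom 2.02 to 8.40). The fit was checked on simulated counts. Alternatives were DESeq2 size factors, DESeq2 1.42.0, no filter, a replicate block, the multiply aligned share as a covariate, the first model only, only the groups compared, and leaving out each library. Named were ROS1, the 7 genes, up to 4 called genes of smallest p per list, and the 3 most similar genes for each tested one. The similar genes were taken from those with an average log2 CPM of at least 1. The genes and lists were chosen with earlier results of these data known.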

Additional observations from a re-analysis of the deposited data

How the results depend on the processing

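Of 192 values of CYP707A4, UGT71B6 and BGLU33 under alternatives other than the block and leaving out libraries, 187 kept their direction and their side of the threshold. The reversed ones, none of them called, were BGLU33 in WT ABA against mock (-0.011) and UGT71B6 in ros1-3 against ros1-4 in ABA (0.19), both with the multiply aligned share as covariate, which also gave -1.04 for UGT71B6 and -0.82 for BGLU33 in ros1-4 against WT in mock. The number of the 3 genes called was 1 for ABA in WT with that covariate, 1 for ros1-3 against WT in mock with no filter, and 1 for ros1-3 against WT in ABA with only the groups compared.

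Genes called over the genome moved with the filter, the covariate and single libraries, and the cause was not tested. With no filter they were 333 for ros1-3 and 108 for ros1-4 against WT in mock, 202 for ros1-4 against WT in ABA, 320 for ros1-3 against ros1-4 in mock, and 16 and 3 for the interactions of ros1-3 and ros1-4. With the covariate they were 96, 11, 44 and 80 for the same 4 comparisons of genotypes, 267 for ros1-3 against ros1-4 in ABA and 4 for the ros1-3 interaction. DESeq2 called 10 and 1 for the interactions. The main counts were 210, 71, 108, 201, 442, 0 and 0.

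With each library left out in turn, genes called ranged from 105 to 285 for ros1-3 and 47 to 75 for ros1-4 against WT in mock, 138 to 302 and 65 to 120 in ABA, 116 to 230 for ros1-3 against ros1-4 in mock and 199 to 486 in ABA, and 0 to 6 and 0 to 2 for the interactions. The number of the 3 genes called was 0 to 1 for ros1-3 against ros1-4 in ABA. Values that changed sign, none called, ranged from -0.93 to 0.36 (CYP707A4) and -0.58 to 0.14 (UGT71B6) for ros1-4 against WT in mock, -0.293 to 0.034 (BGLU33) for ros1-4 against WT in ABA, -0.395 to 0.087 (UGT71B6) for ros1-3 against ros1-4 in ABA, -0.22 to 0.18 for the ros1-3 interaction of UGT71B6, and -0.69 to 0.59 and -0.094 to 0.249 for the ros1-4 interactions of CYP707A4 and BGLU33.

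Same-numbered samples shared little deviation from their group means: r ran from -0.16 to 0.24, and 1 of 27 pairs exceeded 0.1. These values cannot show whether same-numbered samples were handled together. A replicate block called 5904, 5878 and 5864 genes for ABA in ros1-3, ros1-4 and WT, 178 and 64 for ros1-3 and ros1-4 against WT in mock, 232 and 96 in ABA, and 2 of the 3 genes for ABA in every genotype. With the block BGLU21 for ABA in ros1-3 (-1, edgeR adjusted p = 0.0604) and NCED2 between the alleles in ABA (-0.81, edgeR adjusted p = 0.0646) were not called, and no other named call changed. At 0 to 5 counts a library, depth limits what can be said of CYP707A4 and NCED2 in mock.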
